A study of Rattus norvegicus and Sus scrofa and Bos taurus with 188 samples.

Results

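Ribosome biogenesis and nucleolar genes were described in morulae of the pig (Sus scrofa) that carry the mark PG. In sister samples of the series this mark stands for parthenogenetic activation, in which an egg is activated without sperm, so that the embryo has a maternal genome only. The members were chosen by gene symbol alone, from the names of RNA polymerase I subunits, the nucleolar NOP, NOL, NOC, UTP and RRP families, small nucleolar ribonucleoproteins and named assembly factors, and 66 of the 15877 gene names in the deposited table matched. The series holds 188 samples of 4 species, of which 62 are from pig, and profiles chromatin marks, DNA methylation and RNA in gametes and early embryos. The 4 Smart-seq2 libraries of these morulae, made by copying polyadenylated RNA into full-length cDNA, were merged by the authors into 1 column of FPKM, that is fragments scaled to transcript length and library size. The labels do not say how many embryos went into a library, and no second group was analysed here. Each level below is therefore 1 value with no replicate spread, and no test between conditions was possible. A gene's level is that of its highest transcript row. The column is a bulk measurement, in which fewer cells with a transcript and less of it per cell cannot be told apart.

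A ribosome is built mostly in the nucleolus. RNA polymerase I transcribes a long precursor of the 18S, 5.8S and 28S ribosomal RNAs, and small nucleolar ribonucleoproteins (snoRNPs) guide the methylation and pseudouridylation of this precursor. A large particle, the small subunit processome, folds and cuts the part that becomes the 40S subunit, other factors assemble the 60S subunit, and both are finished in the cytoplasm. In early mammalian embryos the nucleolus starts as a compact body without ribosomal RNA synthesis and becomes active as the embryonic genome is switched on. The roles given below are known mainly from yeast and human cells.

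Nearly all of these genes had RNA in the morulae, mostly at moderate levels. A level of 1 FPKM or more was reached by 64 of the 66 genes (97.0%), against 48.8% of all genes in the table, and none was listed at 0. At 10 FPKM or more stood 52 of the 66 (78.8%), against 20.2% of all genes. At 100 FPKM or more stood 10 of the 66 (15.2%), against 3.14% of all genes. The median was 24.5 FPKM over the 66 genes and 0.916 FPKM over all genes, and the middle 50% of the 66 genes lay between 12.0 and 72.3 FPKM. Of the 66 genes, 53 exceeded 6.89 FPKM, the median of all genes at 1 FPKM or more.

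**Figure D1:**
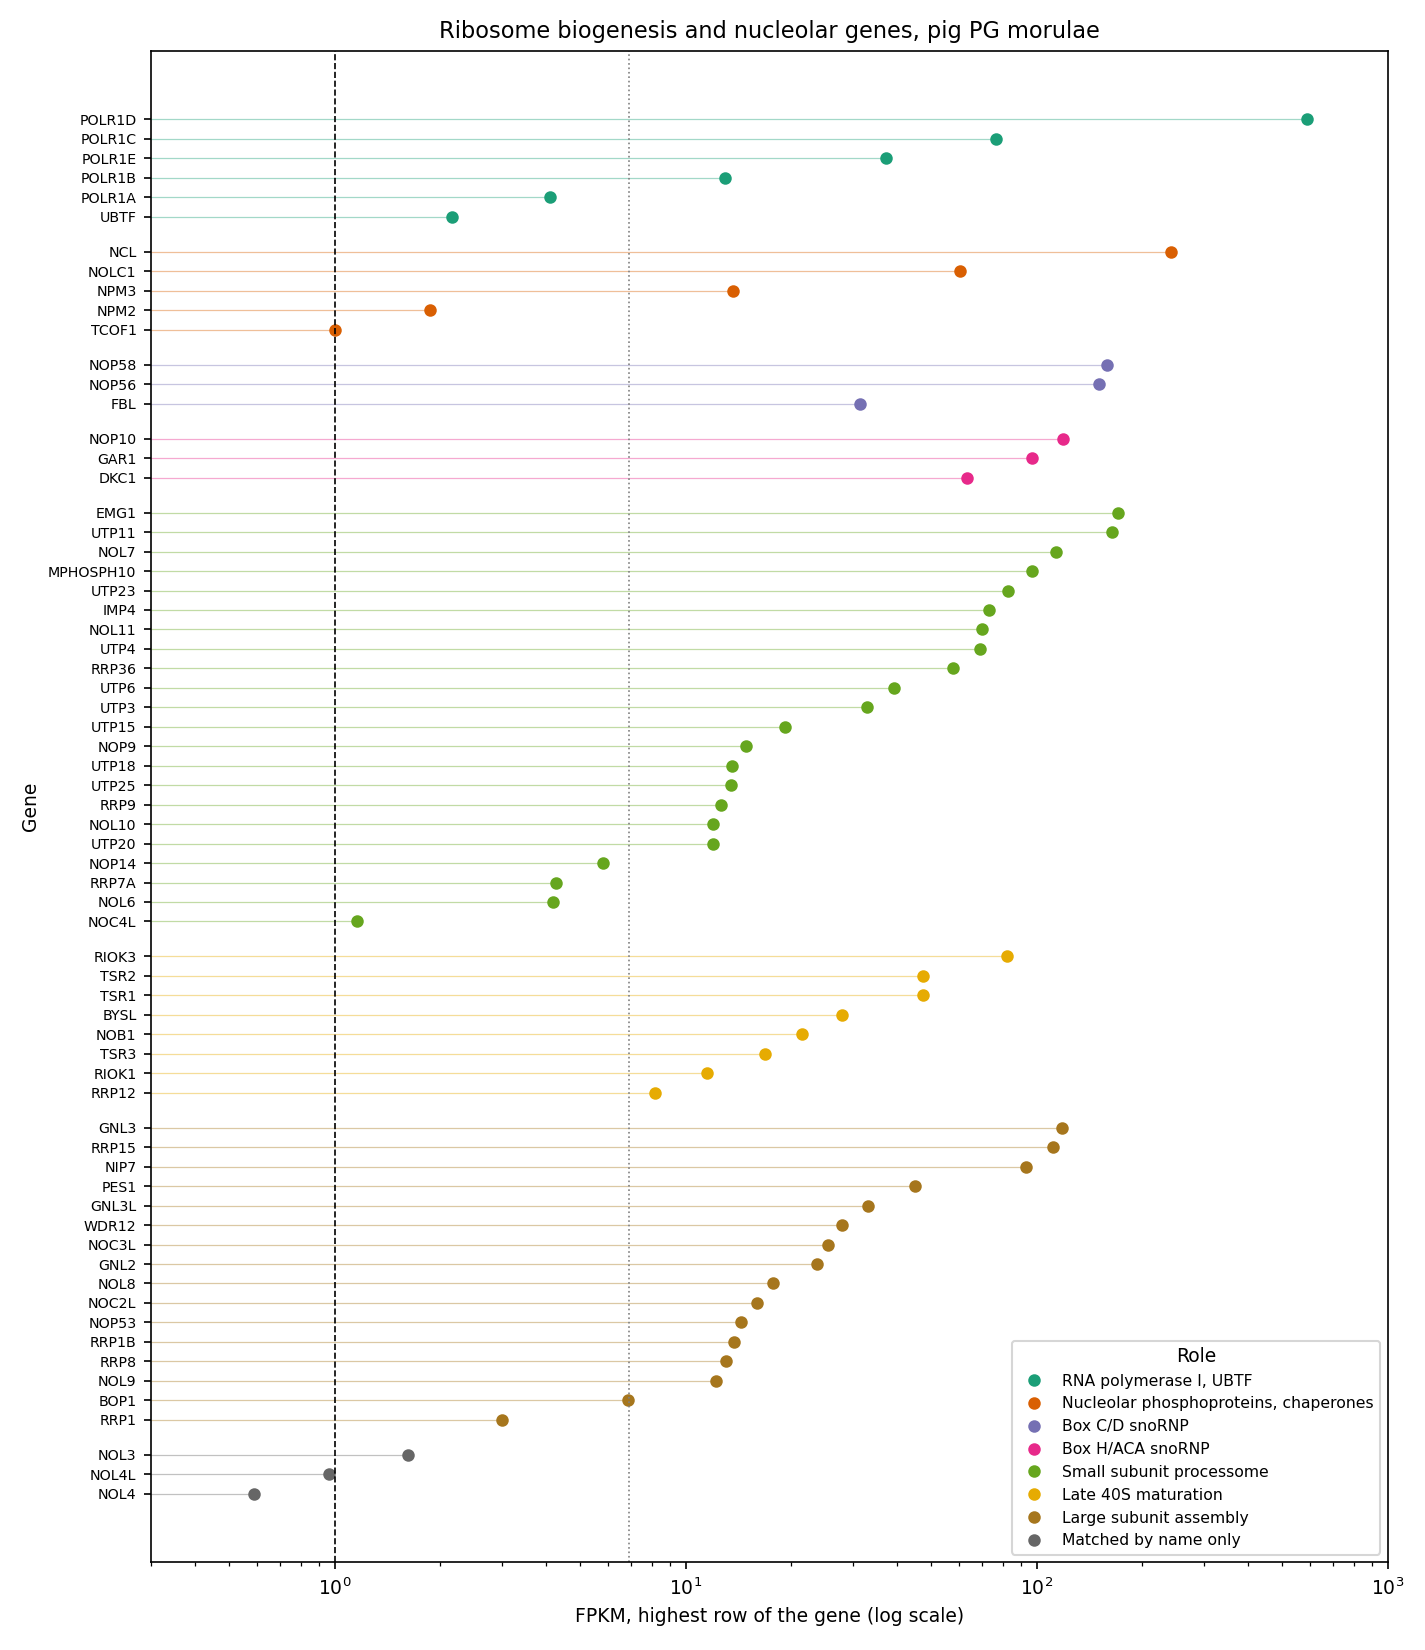
FPKM of the highest row (log axis) of each of the 66 genes, 1 point per gene, grouped and coloured by role and ordered by level within a role. The dashed line marks 1 FPKM and the dotted line 6.89 FPKM, the median of all genes at 1 FPKM or more; 64 genes lie at or right of the dashed line, with TCOF1 just on it, and NOL4L and NOL4 left of it.

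The levels ranged from 589 FPKM for POLR1D to 0.589 FPKM for NOL4. POLR1D held rank 69 among the 15877 genes, and the next gene of the group, NCL at 242 FPKM, held rank 168. The 5 highest genes, POLR1D, NCL, EMG1, UTP11 and NOP58, made up 37.0% of the FPKM of the 66, summed over highest rows. With rows summed EMG1 (285 FPKM) and NOP58 (267 FPKM) passed NCL. NOP56 (176 FPKM) then passed UTP11 (164 FPKM) and took its place among the 5. With all transcript rows counted, the 66 genes took 1.32% of the FPKM total. The 48 cytosolic ribosomal protein genes, which encode the proteins of the finished particle, took 15.5%. Their median of 777 FPKM was 31.7 times that of the biogenesis genes. The 63 mitochondrial ribosomal protein genes, whose products form the separate ribosome of mitochondria, had a median of 44.5 FPKM. The shares at 1 FPKM or more were close in the 3 sets, with 64 of 66 biogenesis genes, 61 of 63 mitochondrial and 46 of 48 cytosolic ribosomal protein genes. These sets were compared by their values only.

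**Figure D2:**
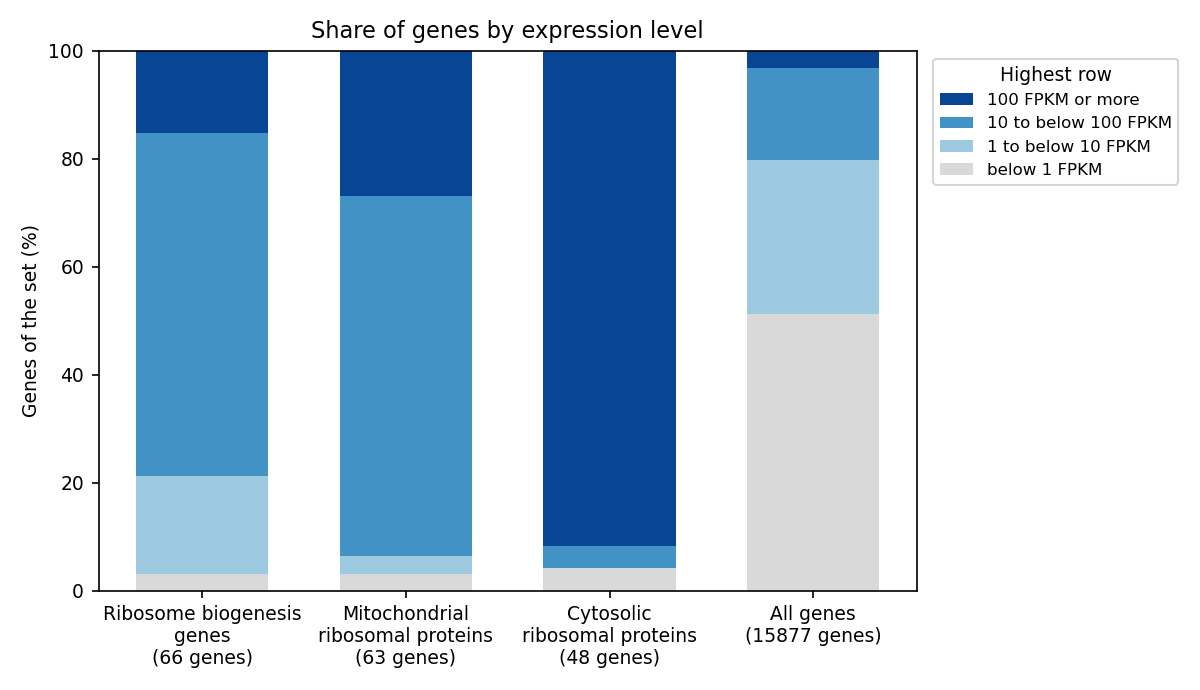
Share of genes (%) in 4 bands of FPKM for the 66 biogenesis genes, the 63 mitochondrial and 48 cytosolic ribosomal protein genes and all 15877 genes, with 1 stacked bar per set. Most biogenesis genes (63.6%) lie from 10 to below 100 FPKM, most cytosolic ribosomal protein genes (91.7%) at 100 FPKM or more, and 51.2% of all genes below 1 FPKM.

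Marker genes were used to check the labelled tissue. All 14 markers of oocyte and embryo stood at 1 FPKM or more, against 48.8% of all genes. They ranged from 1.44 to 194 FPKM and together summed to 802 FPKM. This list mixes genes of the egg and of the embryo, so it does not check the stage. Of 11 markers of cumulus cells, the somatic cells that surround the egg, 1 stood at 1 FPKM or more. That gene was VCAN at 10.2 FPKM. The cumulus list summed to 11.4 FPKM, and FSHR, the receptor for follicle-stimulating hormone, and TNFAIP6, a gene of cumulus expansion, were listed at 0. A listed 0 in this table can stand for a level that is not known, so these zeros do not show absence. The part of other cells in the levels of the 66 genes was not tested.

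The subunits of RNA polymerase I spanned 143-fold, from POLR1D to POLR1A. POLR1D, a small subunit of the assembly core shared with RNA polymerase III, stood at 589 FPKM, 7.67 times as high as its partner POLR1C at 76.8 FPKM, which is also shared. POLR1E, part of a polymerase I dimer that resembles initiation factors, stood at 37.3 FPKM. The catalytic subunits were lower, with POLR1B, the second largest, at 12.9 FPKM and POLR1A, the largest, at 4.11 FPKM. The lowest gene of the group was UBTF, the factor that binds ribosomal DNA and keeps it open, at 2.16 FPKM. With rows summed UBTF came to 5.43 FPKM, and POLR1A, with its single row, was then the lowest.

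The remaining subunits appeared in the table under older symbols, which the symbol rule did not take. TWISTNB (now POLR1F) stood at 48.2 FPKM, ZNRD1 (now POLR1H) at 55.9 FPKM and CD3EAP (now POLR1G) at 20.8 FPKM. With them the 8 listed subunits of RNA polymerase I had a median of 42.7 FPKM. All 8 exceeded 1 FPKM, against 48.8% of all genes at 1 FPKM or more. The 8 measured subunits of RNA polymerase III had a median of 13.6 FPKM. That list leaves out the shared POLR1D and POLR1C, which are counted with polymerase I, so these medians are of unlike sets. The 5 measured subunits particular to RNA polymerase II had a median of 53.4 FPKM, and 4 subunits common to all nuclear polymerases one of 140 FPKM. The other factors of polymerase I transcription were all above 1 FPKM as well, against the same 48.8%. TAF1D, a subunit of the promoter selectivity factor, was the highest of these at 59.4 FPKM, and DDX21, a nucleolar helicase, stood at 48.3 FPKM. RRN3, which carries the polymerase to the promoter, stood at 16.4 FPKM, and the selectivity factor subunit TAF1C was lowest at 2.93 FPKM.

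Among nucleolar phosphoproteins and histone chaperones, NCL and TCOF1 lay at opposite ends. NCL (nucleolin), an abundant protein that binds the ribosomal RNA precursor, stood at 242 FPKM. NOLC1, a scaffold of nucleoli and Cajal bodies that carries snoRNPs, stood at 60.3 FPKM. TCOF1 (treacle), its structural relative, which promotes ribosomal DNA transcription, stood at 1.00 FPKM, so that the level of NOLC1 was 60.3 times as high. TCOF1 was the gene closest above the 1 FPKM line and NOL4L, at 0.963 FPKM, the one closest below it. Of the nucleoplasmin family, NPM3 stood at 13.7 FPKM. NPM2, the nucleoplasmin of eggs, which decondenses sperm chromatin and shapes nucleoli of the early embryo in mice, stood at 1.86 FPKM. NPM1 was not analysed here.

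The core proteins of the snoRNPs were the highest role group, and every measured member stood at 31.4 FPKM or more. In the box C/D particles, which methylate ribosomal RNA, the scaffold proteins NOP58 and NOP56 stood at 159 and 151 FPKM. FBL (fibrillarin), the methyltransferase itself, stood at 31.4 FPKM, and the level of NOP58 was 5.07 times as high. SNU13, the RNA-binding core protein that the particle shares with the spliceosome and which lies outside the symbol rule, stood at 514 FPKM. The distance between SNU13 and FBL, the highest and lowest core protein, was thus 16.4-fold. With all rows of each gene summed it was 8.73-fold, at 535 FPKM for SNU13 and 61.3 FPKM for FBL.

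The box H/ACA particles, which convert uridine into pseudouridine, had a narrower range. NOP10 stood at 119 FPKM, GAR1 at 97.3 FPKM and DKC1 (dyskerin), the pseudouridine synthase, at 63.3 FPKM. These 3 levels lay within 1.87-fold of each other, with the enzyme lowest, as FBL was in the box C/D particles. The fourth core gene, NHP2, was not analysed here.

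**Figure D3:**
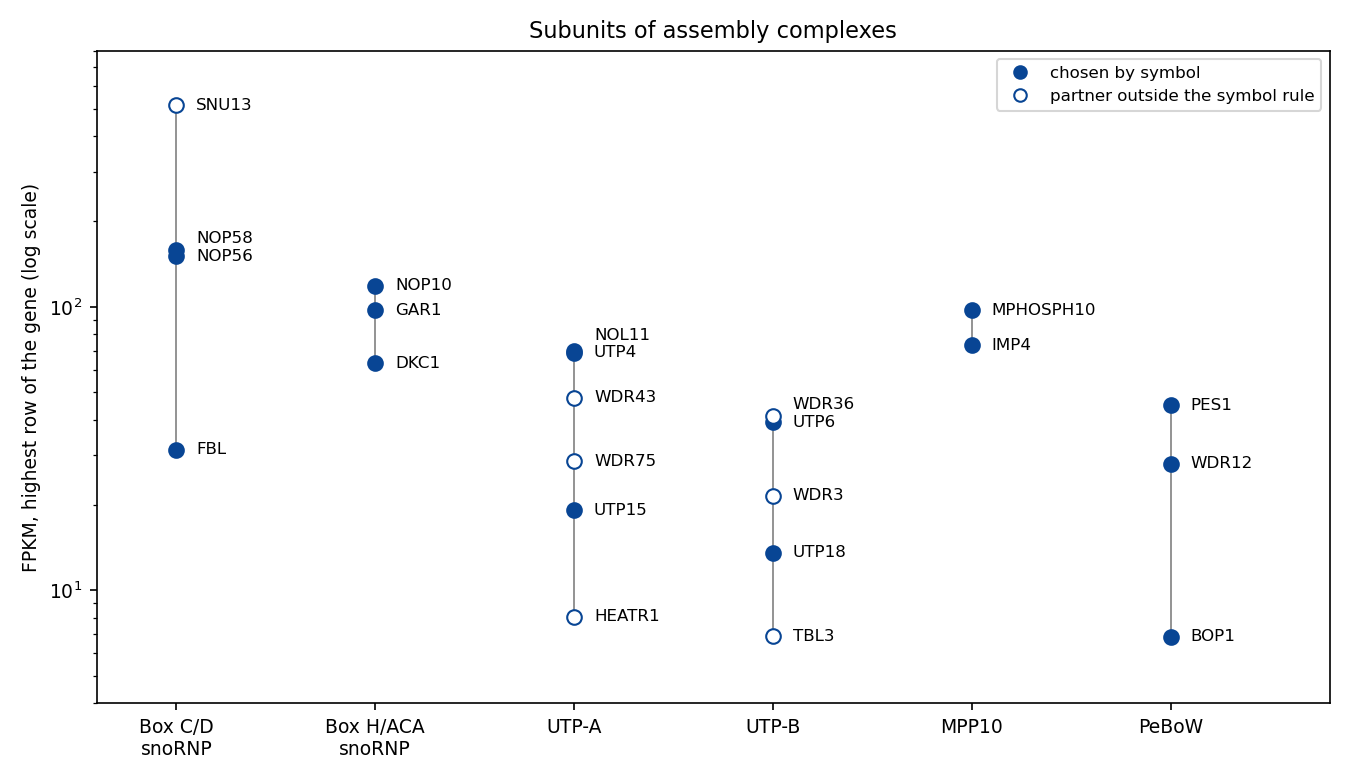
FPKM of the highest row (log axis) of the measured subunits of 6 complexes, 1 point per gene, with filled points for genes chosen by symbol and open points for partners outside the rule. Subunits span 16.4-fold in the box C/D snoRNP, from SNU13 to FBL, but 1.87-fold in the box H/ACA snoRNP and 1.33-fold between the 2 measured MPP10 subunits.

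The small subunit processome was the largest role group, with 22 genes and a median of 26.1 FPKM. All 22 stood at 1 FPKM or more, against 48.8% of all genes. The highest was EMG1, the methyltransferase that acts on a pseudouridine of 18S ribosomal RNA, at 171 FPKM. UTP11 followed at 164 FPKM and NOL7 at 113 FPKM. UTP23, needed for release of a snoRNA from the precursor in yeast, stood at 82.9 FPKM and RRP36, an early cleavage factor, at 57.8 FPKM. At the other end NOC4L, the partner of NOP14, stood at 1.15 FPKM, the level of UTP11 being 142 times as high, or 71.8 times with rows summed. NOP14 itself (5.81 FPKM), RRP7A (4.27 FPKM) and NOL6 (4.18 FPKM) were the next lowest. No gene of this group lay between 5.81 and 11.9 FPKM, the level of UTP20, a very large scaffold protein. UTP3 stood at 32.9 FPKM, and NOP9, UTP25, RRP9 and NOL10 lay between 12.0 and 14.8 FPKM.

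Subcomplexes of the processome differed in how closely their subunits lay together. In the MPP10 complex, MPHOSPH10 stood at 97.3 FPKM and its partner IMP4 at 73.1 FPKM, a distance of 1.33-fold, and IMP3 was not analysed here. In UTP-A, which binds the start of the nascent precursor, NOL11 and UTP4 stood almost level at 69.8 and 68.9 FPKM, while UTP15 stood at 19.2 FPKM. Its other subunits were WDR43 at 47.7 FPKM, WDR75 at 28.6 FPKM and HEATR1, the largest protein of the complex, at 8.07 FPKM. With rows summed UTP4 came to 95.0 FPKM and NOL11 to 70.3 FPKM. The range of UTP-A was 8.65-fold by highest rows and 11.8-fold with rows summed. In UTP-B, UTP6 stood at 39.1 FPKM and UTP18 at 13.5 FPKM. Its partners WDR36 (41.1 FPKM), WDR3 (21.6 FPKM) and TBL3 (6.90 FPKM) gave a range of 5.96-fold, from WDR36 to TBL3. Of the 6 listed subunits of UTP-B, 5 were measured. With rows summed UTP6 was the highest, and the range was 11.3-fold.

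The 8 genes of late 40S maturation lay in a narrower band, from 8.18 to 82.1 FPKM, with a median of 24.7 FPKM. RIOK3, an atypical kinase found on cytoplasmic precursors of the 40S subunit, stood highest, at 7.13 times the level of RIOK1 (11.5 FPKM). TSR2, the escort of ribosomal protein eS26, and TSR1, a GTPase-like factor that blocks early entry into translation, stood at 47.5 and 47.3 FPKM. BYSL, a nuclear factor of the same precursor, stood at 27.9 FPKM. NOB1, the nuclease that makes the final cut at the end of 18S ribosomal RNA, stood at 21.4 FPKM. TSR3, which modifies a base of that RNA, stood at 16.9 FPKM, and the export factor RRP12 was lowest. LTV1 and RIOK2 were not analysed here.

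The 16 genes of large subunit assembly had a median of 20.7 FPKM. All 16 stood at 1 FPKM or more, against 48.8% of all genes. GNL3 (nucleostemin), a nucleolar GTPase known from stem cells and proliferating cells, was highest at 118 FPKM. Its relatives GNL3L and GNL2 stood at 33.2 and 23.7 FPKM, so that GNL3 was 3.55 and 4.98 times as high. RRP15 stood at 111 FPKM and NIP7 at 93.5 FPKM. With rows summed RRP15 was the highest of the group at 130 FPKM, above GNL3 at 118 FPKM. The PeBoW complex, which acts in processing of 28S ribosomal RNA, was uneven. PES1 stood at 44.9 FPKM, WDR12 at 27.9 FPKM and BOP1 at 6.86 FPKM, 6.55-fold below PES1. NOC3L stood at 25.4 FPKM, and NOL8, NOC2L, NOP53, RRP1B, RRP8 and NOL9 lay between 12.2 and 17.7 FPKM. RRP1, the relative of RRP1B (13.7 FPKM), was lowest at 3.00 FPKM.

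The symbol pattern also took 3 genes whose known roles lie outside ribosome synthesis. They were the lowest group, with a median of 0.963 FPKM. NOL3, an inhibitor of cell death, stood at 1.62 FPKM. NOL4L at 0.963 FPKM and NOL4, known from brain and testis, at 0.589 FPKM were the 2 genes of the 66 below 1 FPKM. All 63 other genes, which sort into the roles of ribosome synthesis or nucleolar structure, were therefore at 1 FPKM or more. The share of all genes at this level was 48.8%.

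Assembly factors whose names the pattern did not cover gave similar values. Of 61 such genes in the table, from lists of 40S and 60S factors, 60 (98.4%) stood at 1 FPKM or more, against 64 of the 66 genes chosen by symbol and 48.8% of all genes. Their median was 22.5 FPKM. The exception was MAK16, listed at 0 within the last 474 rows of the table, all of which are at 0, so its level is not known here. The same holds for MRPL41 and MRPS2, the 2 mitochondrial ribosomal protein genes below 1 FPKM. Among the 40S factors, FCF1, a nuclease-fold protein of the processome, stood at 318 FPKM and DCAF13, also of the processome, at 184 FPKM. The 40S list also holds NOA1 (11.3 FPKM), a GTPase known from assembly of the mitochondrial ribosome. Among the 60S factors, RSL1D1 stood at 246 FPKM, RPF2, which brings in the 5S ribonucleoprotein, at 153 FPKM, and BRIX1 at 119 FPKM.

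For some genes the choice of the highest row mattered. The 66 genes had 122 transcript rows, and 32 genes had a single row. Of the 34 with several, 13 had over 95% of their FPKM in 1 row, as in DKC1. In 6 genes the highest row held under 60%. For FBL the rows were nearly equal, at 31.4 and 30.0 FPKM, and those of NOC4L stood at 1.15 and 1.14 FPKM. UBTF was the most divided, with 8 rows, the highest of which held 39.9% of a sum of 5.43 FPKM. UTP6 held 48.7% of 80.4 FPKM in its highest row. NOP58 had its highest rows at 159 and 95.3 FPKM. NOL4 had rows of 0.589, 0.569 and 0.0626 FPKM, and its sum of 1.22 FPKM crossed 1 FPKM, the single gene of the 66 to do so. EMG1, whose highest row held just over 60%, came to 285 FPKM with both rows summed. The sum was over 1.5 times the highest row in 8 genes, and the largest ratio was 2.51, in UBTF.

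**Figure D4:**
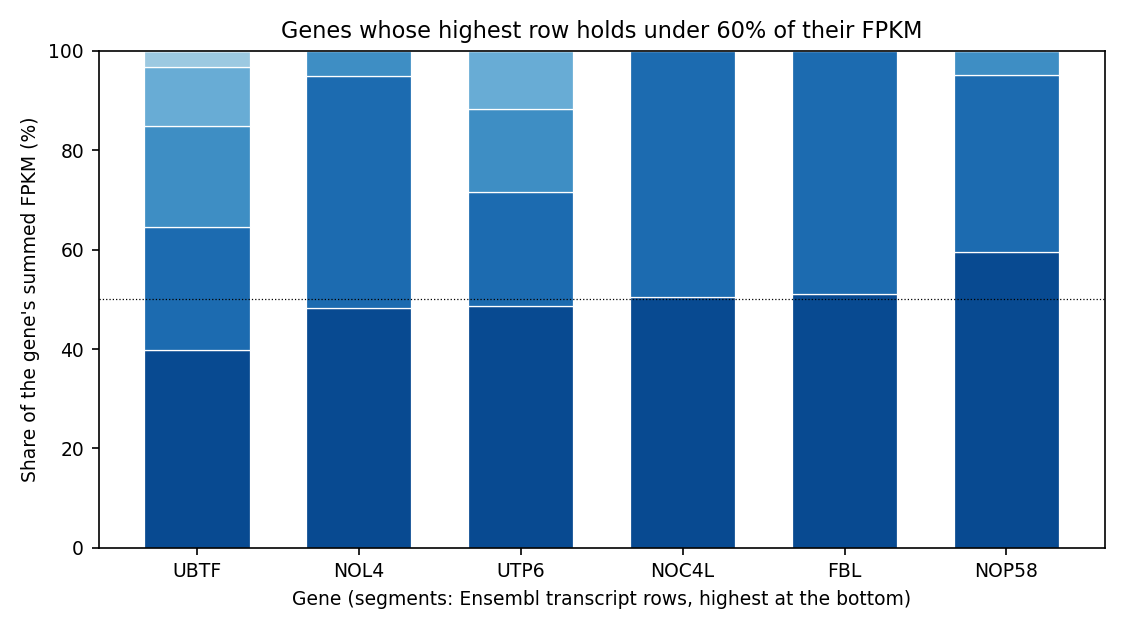
Share (%) of each gene's summed FPKM held by each of its transcript rows, as stacked segments with the highest row at the bottom, for the 6 genes whose highest row held under 60%. The dotted line marks 50%; UBTF has the lowest bottom segment (39.9%), and FBL and NOC4L split almost equally between 2 rows.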

How the data were processed

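RNA of 4 Smart-seq2 libraries of pig PG morulae was deposited as 1 merged column. Per the file headers, its values are FPKM, computed by the authors for 37571 Ensembl transcripts. It is not stated whether reads or FPKM were merged. Per the submitters' processing notes, the series used TopHat2 2.1.1, Cufflinks 2.2.1 and the build susScr11 among other tools, with no role given. FPKM depends on the transcript length assigned to each row, and lengths were not used here. The depth is unknown: 4534 rows lay above 0 and below 1e-06 FPKM, so no whole reads could be recovered, and no interval is given.

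Members were matched by symbol. A gene's level was its highest row, and a threshold of 1 FPKM was used. Members, 8 role lists, partner lists and complexes were chosen with earlier results of these data known. All members may be named. From the lists of other assembly, polymerase I, snoRNP and exosome factors, the 3 highest genes, any below 1 FPKM and partners of members were named. The remaining lists are given by counts, medians, sums and ranges. NOA1 was named for its role. RRN3, TAF1C, VCAN, FSHR, TNFAIP6, MRPL41 and MRPS2 were chosen after their values were seen. Counts, medians and ratios were computed with pandas 2.3.3 under Python 3.11.15, and the counting step was tested on simulated data. Of the symbols in the role lists, 13 had no row. Alternatives were summed rows, TPM scaling, other thresholds, a filter on low values, means of log values, and fewer genes.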

Additional observations from a re-analysis of the deposited data

How the results depend on the processing

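With 1 merged column, no library could be left out, and depth sets no limit that can be stated. Leaving out genes of the trailing rows of zeros or under 0.1 FPKM could remove none of the 66 genes, so these alternatives say nothing on their levels. The 64 genes at 1 FPKM or more became 65 with rows summed and 66 after scaling to TPM. The count was 66 at 0.5 FPKM, 55 at 5 FPKM and 52 at 10 FPKM. Without NOL3, NOL4, NOL4L and NPM2 it was 62, which was every gene left. Scaling to TPM multiplied every level by 3.28 and put the median at 80.4 TPM. The cutoff stayed at 1, so the count after scaling is only that of a lower FPKM threshold. With rows summed, without those 4 genes or as a mean of log values the median lay between 22.9 and 27.9 FPKM. The role groups with every gene at the threshold numbered 7 of 8 at 1 FPKM, 3 at 5 FPKM and 2 at 10 FPKM, where the snoRNP groups alone were complete. Of the other assembly factors, 43 of 61 reached 10 FPKM, against 52 of the 66 genes and 20.2% of all genes. Apart from TPM scaling, 2 role medians moved by over 1.5 times. That of the nucleolar phosphoproteins was 37.0 FPKM without NPM2, and that of box C/D proteins was 91.2 FPKM as a mean of log2(FPKM + 1).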

Other observations

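Factors that load snoRNPs or trim ribosomal RNA, none of them chosen by the symbol rule, were also present. Of the 10 measured snoRNP assembly genes, all stood at 1 FPKM or more, against 48.8% of all genes, with a median of 19.8 FPKM. ZNHIT6 (118 FPKM) and NUFIP1 (103 FPKM), both of box C/D assembly, were highest, and the helicase gene RUVBL1 stood at 54.2 FPKM. NAF1 and SHQ1, which assemble the box H/ACA particles, stood at 15.9 and 16.3 FPKM. Of the 13 measured genes of the nuclear exosome and its partners, which trim the ends of ribosomal RNA, all stood at 1 FPKM or more, against the same 48.8%, with a median of 38.4 FPKM. The ring and cap subunit genes EXOSC1 (135 FPKM), EXOSC3 (89.1 FPKM) and EXOSC9 (83.8 FPKM) were highest, and the core subunit EXOSC6 was lowest at 10.6 FPKM. With rows summed EXOSC9 was highest, at 157 FPKM. NAF1, SHQ1 and EXOSC6 were chosen after their values were seen.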
